A study of Mus musculus with 2 samples.

Results

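The 9 genes described here encode enzymes that make serine and pass its carbon to folate and thymidylate. They are Phgdh, Psat1 and Psph of serine synthesis, Shmt1 and Shmt2 of serine-to-glycine conversion, Mthfd1, Mthfd2 and Mthfd1l of the folate cycle, and Tyms of thymidylate synthesis. They were chosen by gene symbol, and all 9 were found among the 43346 genes listed. RNA came from forebrains of B6NCrl mouse embryos at 16.5 days of gestation, with tissue of male and female embryos mixed. There is 1 group, healthy and untreated as far as the labels state, with 2 biological replicates that are separate pools. The second pool came from 41 embryos, and the number for the first is not given in the sources used here. From 10 ng of RNA longer than 200 nt, to which spike-in RNA was added, the libraries gave gene totals of 31211128 (replicate 1) and 26957198 (replicate 2) expected counts. Since only this tissue and age were sampled, the data allow levels, ratios within a library and a comparison of the pools, and no p-value.

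Cells build serine from the glycolytic intermediate 3-phosphoglycerate in 3 steps. Serine hydroxymethyltransferases then split it into glycine and a carbon unit carried by tetrahydrofolate. The carbon passes through parallel folate cycles in the cytosol and the mitochondrion and ends in purines, thymidylate, formate or methionine. In the developing brain, serine synthesis is best known from radial glia, the neural stem cells, and loss of its enzymes causes severe brain malformation, while folate supply is known for its part in neural tube closure.

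Levels are in TPM, a relative abundance corrected for transcript length so that genes can be compared, and are given as mean ± SD (n = 2). Both libraries held all 9 enzymes at 1 TPM or more, and 8 of 9 reached 10 TPM in each, against 40.9% of 21474 protein-coding genes. The exception was Mthfd1l. The order was the same in both libraries, from Phgdh through Psat1, Tyms, Shmt2, Mthfd1, Psph, Mthfd2 and Shmt1 to Mthfd1l, and spanned 42.1-fold between the means of the first and the last. In 7 of the 8 neighbouring pairs in that order, the values of the pools did not overlap. Mthfd1 and Psph, whose means stood 1.07-fold apart, overlapped. The 3 serine synthesis genes together held 57.4% of the summed TPM of the 9 in replicate 1 and 58.4% in replicate 2.

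**Figure D1:**
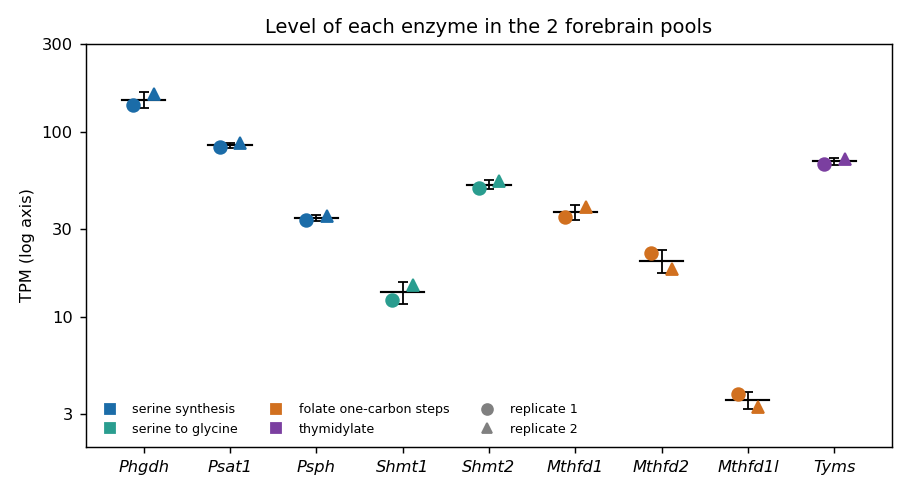
TPM of the 9 enzyme genes (log axis) in replicate 1 (circles) and replicate 2 (triangles) of E16.5 forebrain, coloured by step, with the mean (wide bar) and SD (whiskers, n = 2). Phgdh is highest at 140 and 161 TPM, Mthfd1l is lowest at 3.84 and 3.30 TPM, and Mthfd2 and Mthfd1l are the genes whose triangle lies below the circle.

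Phgdh catalyses the first step of serine synthesis, the oxidation of 3-phosphoglycerate. The gene (ENSMUSG00000053398, chr3:98313170-98339990, minus strand, mm10) had levels of 140 TPM (replicate 1) and 161 TPM (replicate 2), or 150 ± 15.1 TPM, above 94.6% and 95.3% of protein-coding genes. Almost all of it was assigned to a single coding transcript, Phgdh-201, with 99.2% and 100% of the gene's TPM. The library of the second pool was the higher one, with non-overlapping deposited intervals of 132 to 141 TPM and 152 to 162 TPM (the level of these intervals is not given in the sources used here).

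Psat1 encodes the aminotransferase of the second step. The gene (ENSMUSG00000024640, chr19:15904678-15947337, minus strand) was at 83.1 and 87.2 TPM (85.1 ± 2.88 TPM). Phgdh exceeded it in each library, by 1.68-fold and 1.85-fold, a mean log2 ratio of 0.82 ± 0.10. Its reads were divided between 2 main coding transcripts with different first exons. Psat1-201, which encodes 370 residues, held 61.2% of the gene's TPM in replicate 1 and 79.2% in replicate 2. Psat1-205, which encodes 367 residues and starts in the first intron of Psat1-201, held 28.2% and 14.7%. In estimated counts, Psat1-201 went from 2405 in the first library to 2741 in the second, while Psat1-205 went from 964 to 443. The pools thus differed by less in the gene's level than in the division between its transcripts. Posterior mean shares, the second estimate deposited, were 60.4% and 75.8% for Psat1-201 and 27.6% and 9.56% for Psat1-205. Annotated coding transcripts together held 94.0% in both libraries. The transcripts share their middle exons and differ in the first and last ones, so the division rests on reads from those parts.

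The start positions of these transcripts, 15925059 and 15924622, are also the 2 start sites that RefSeq gives for the gene. The 150 bases before each are printed because they are the upstream sequences of the start sites whose transcripts divided differently (RefSeq, GRCm38.p6, minus strand, 5′ to 3′). Capitals mark the letters CCAAT or their reverse complement ATTGG, the core of a common proximal promoter element.
Psat1, start of Psat1-201, chr19:15925060-15925209: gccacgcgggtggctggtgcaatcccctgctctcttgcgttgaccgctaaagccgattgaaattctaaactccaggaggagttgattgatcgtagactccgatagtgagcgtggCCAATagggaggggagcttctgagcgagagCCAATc
Psat1, start of Psat1-205, chr19:15924623-15924772: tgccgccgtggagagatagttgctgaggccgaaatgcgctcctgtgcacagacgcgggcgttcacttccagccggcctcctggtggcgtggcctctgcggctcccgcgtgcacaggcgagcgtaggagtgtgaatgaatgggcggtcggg
The first stretch holds 2 matches, at 36 and 6 bases before the start, and the second holds none. Neither stretch overlaps an annotated exon.

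Psph encodes the phosphatase that releases free serine. The gene (ENSMUSG00000029446, chr5:129765558-129787449, minus strand) was at 33.7 and 35.5 TPM (34.6 ± 1.25 TPM). Psat1 was 2.47-fold and 2.46-fold above it in the same libraries, a mean log2 ratio of 1.30 ± 0.0034. Psph-201 held 96.9% and 97.7% of the gene's TPM. In the annotation used here, the 5′ end of Psph overlaps 452 bases of Cct6a, a chaperonin subunit gene on the opposite strand at 433 and 471 TPM. Psph-201 has 1488 bases in the authors' annotation against 1733 here, so the overlap behind the deposited counts may differ in size. Whether reads were counted by strand is not given in the sources used here, so reads from the overlap cannot be told apart. The 3 serine synthesis genes thus declined in level in the order of their reactions in each library.

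Shmt1 and Shmt2 both convert serine to glycine, Shmt1 in the cytosol and nucleus and Shmt2 mainly in the mitochondrion. Shmt2 (ENSMUSG00000025403, chr10:127517123-127522444, minus strand) was at 50.1 and 54.3 TPM (52.2 ± 3.01 TPM), all on its single listed transcript. Shmt1 (ENSMUSG00000020534, chr11:60788104-60811718, minus strand) was at 12.4 and 15.1 TPM (13.7 ± 1.88 TPM). The mitochondrial form was 4.03-fold and 3.61-fold above the cytosolic form, a mean log2 ratio of 1.93 ± 0.11 that far exceeded the spread between the pools. The Shmt1 level depended on the estimator. Its deposited TPM in replicate 1, 12.41, lay just below its own deposited interval of 12.44 to 16.74 TPM, and the posterior means were 14.6 and 17.4 TPM, which lowered the log2 ratio of Shmt2 to Shmt1 to 1.66.

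Shmt1 reads were spread over 11 listed transcripts. The full-length coding transcript Shmt1-201 held 71.9% and 61.7% of the gene's TPM. Shmt1-208, a transcript with no annotated coding sequence, was listed at 0% in replicate 1 and 21.9% in replicate 2, where it stood for 62.1 estimated counts. By posterior means it held 3.45% and 13.7%. All coding transcripts together held 84.9% and 63.9%. The 3′ end of Shmt1 overlaps 184 bases of Smcr8 on the opposite strand, and Shmt2 overlaps 32 bases of Ndufa4l2.

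Mthfd1 encodes the cytosolic enzyme that interconverts formyl-, methenyl- and methylene-tetrahydrofolate through 3 activities. The gene (ENSMUSG00000021048, chr12:76255298-76319803, plus strand) was at 34.8 and 39.4 TPM (37.1 ± 3.27 TPM), all on its single listed transcript. In the mitochondrion these activities are split between genes. Mthfd2, a dehydrogenase and cyclohydrolase known from embryonic and dividing cells (ENSMUSG00000005667, chr6:83305691-83325908, minus strand), was at 22.3 and 18.2 TPM (20.3 ± 2.89 TPM), with 98.8% and 100% on Mthfd2-201. Mthfd2l, a related enzyme of the same compartment, was at 23.3 and 25.1 TPM, above Mthfd2 in each library. The log2 ratio of Mthfd2 over Mthfd2l, -0.26 ± 0.28, was no larger than its spread between the pools.

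Mthfd1l encodes the mitochondrial synthetase that releases formate for export to the cytosol. The gene (ENSMUSG00000040675, chr10:3973118-4167081, plus strand) was at 3.84 and 3.30 TPM (3.57 ± 0.38 TPM), the lowest of the 9 and near the middle of all protein-coding genes, above 47.5% and 46.4% of them. It rested on 253 and 183 counts. Mthfd1 was 9.06-fold and 11.9-fold above it, a mean log2 ratio of 3.38 ± 0.28. Mthfd2 was 5.81-fold and 5.53-fold above it, a mean log2 ratio of 2.50 ± 0.05. Single genes of the mitochondrial branch therefore differed in RNA level, from 52.2 TPM for Shmt2 over 20.3 TPM for Mthfd2 to 3.57 TPM for Mthfd1l. Mthfd2l, the enzyme related to Mthfd2, stood at 24.2 TPM beside it, so these values are per gene and not per step. Mthfd1l-202 and Mthfd1l-201, which both encode 977 residues, held 55.7% and 44.3% in replicate 1, and 55.7% and 41.8% in replicate 2.

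The upstream sequences of Mthfd2 and Mthfd1l are printed because these folate genes had ratios between the pools below 0 by scaled counts, described further on, and because they stand at the ends of the motif count. Capitals again mark CCAAT or ATTGG.
Mthfd2, minus strand, chr6:83317605-83317754: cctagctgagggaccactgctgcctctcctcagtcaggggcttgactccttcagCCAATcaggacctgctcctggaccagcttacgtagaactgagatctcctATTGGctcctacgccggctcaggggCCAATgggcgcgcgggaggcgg
Mthfd1l, plus strand, chr10:3972925-3973074: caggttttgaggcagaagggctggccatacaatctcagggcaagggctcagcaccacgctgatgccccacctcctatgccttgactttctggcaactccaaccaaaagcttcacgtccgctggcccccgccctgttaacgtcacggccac
The Mthfd2 stretch holds 3 matches, at 96, 47 and 22 bases before the RefSeq start, and the Mthfd1l stretch holds none. The last 2 bases of the Mthfd2 stretch belong to the first exon of Mthfd2-201 in the annotation, and the Mthfd1l stretch overlaps no exon.

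RefSeq windows of 250 bases before to 50 bases after the start site were available for all 9 genes, 10 windows in all. CCAAT was present on either strand in 6 of the 10 windows, those of Phgdh, Psat1-201, Psph, Shmt1, Mthfd1 and Mthfd2, against 37.4% of 32851 windows of all genes. Mthfd2 and the Psat1-201 start had 3 matches each, a number reached by 3.37% of all windows. Spacing between neighbouring matches was 170 bases at Phgdh, 30 and 29 bases at Psat1, 30 bases at Psph, and 49 and 25 bases at Mthfd2. The letters TGATGNAA, which belong to a composite element of Atf4 and C/EBP factors, were in 0 of the 10 windows and in 3.97% of all. The E2F-type motifs TTTGGCGC and TTTCCCGC were likewise in 0 of 10, against 0.514% and 1.07%. An E-box, CACGTG, was found at Tyms alone (7.15% of all windows), and TATAAA at Phgdh alone (13.6%), 189 bases before the start, where its first T is the last letter of a CCAAT. Windows are matched by letters only, and a match is not a binding site.

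Tyms encodes thymidylate synthase, which methylates dUMP and leaves dihydrofolate. The gene (ENSMUSG00000025747, chr5:30058202-30073617, minus strand) was at 67.3 and 72.0 TPM (69.6 ± 3.32 TPM), the third highest of the 9. Little of this was assigned to its only annotated protein-coding transcript. Tyms-201, with 307 residues, held 8.61% and 8.29% of the gene's TPM, which is 5.79 and 5.97 TPM. Tyms-205, classed in the annotation as a target of nonsense-mediated decay, held 43.0% and 41.0%. The intron-retaining transcripts Tyms-202 and Tyms-206 held 21.6% and 31.5%, and 21.3% and 14.4%. The remainder was mainly Tyms-204, also classed under nonsense-mediated decay, at 4.27% and 4.73%.

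For all other members, the coding share of TPM was 63.9% or more in each library. In estimated counts rather than TPM, Tyms-201 held 20.3% and 20.7% of the Tyms reads, since the transcripts that took most of its TPM are short. The lengths matter for the level. Had all Tyms reads been counted on Tyms-201, the gene would stand at 28.6 and 28.8 TPM, and the deposited gene values are 2.35 and 2.50 times that. This setting, chosen after seeing the data, would place Tyms between Psph and Mthfd2 in the order. Some of these transcripts also differ in length between the authors' annotation and the one used here, with 797 against 618 bases for Tyms-205. Whether the short transcripts were present in the RNA, as opposed to reads being assigned to them, was not tested.

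**Figure D2:**
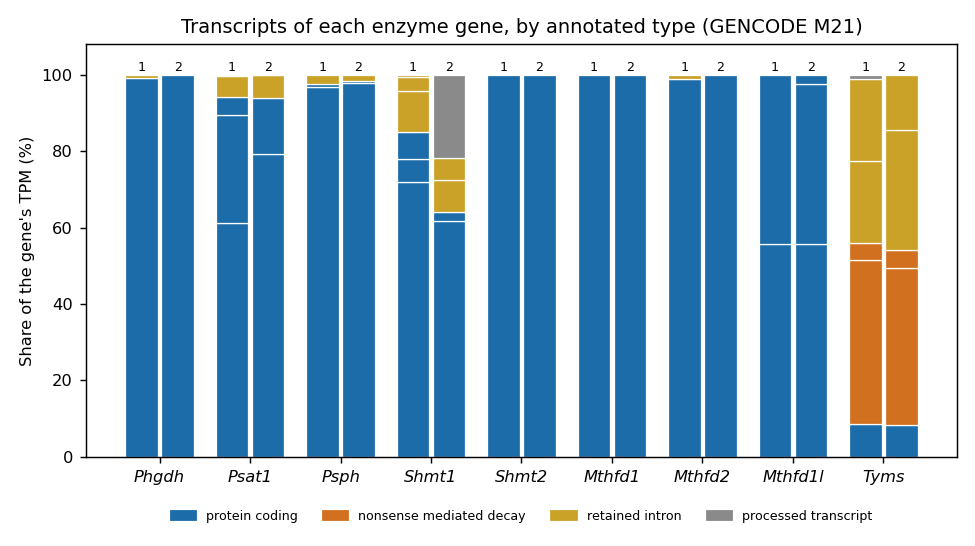
Share of each gene's TPM (percent, y axis) assigned to each listed transcript in replicates 1 and 2 (numbers above the bars), with 1 segment per transcript coloured by its type in GENCODE M21. Protein-coding transcripts hold 63.9% or more in 8 genes, and 8.61% and 8.29% in Tyms.

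Tk1, the salvage route to thymidylate, was at 31.4 and 33.9 TPM. Tyms exceeded it by 2.14-fold and 2.12-fold, a mean log2 ratio of 1.09 ± 0.01. The size of that excess depended on the transcript lengths used. With all reads of each gene on its longest coding transcript, the log2 ratio was 0.07, near equality. This setting also lowered Tk1, to 26.2 and 28.3 TPM.

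The pools were then compared by log2 ratios, replicate 2 over replicate 1, of counts scaled by edgeR's trimmed mean of M-values (TMM), with 95% exact Clopper-Pearson intervals that cover counting error only. Across all genes the common biological coefficient of variation between the pools was 12.2%, and the libraries differed by more than sampling noise. A gene was counted as apart when the interval also excluded equality. None of the 9 enzymes was 2-fold apart, against 1.38% of the 13929 genes that averaged 50 counts or more. None was 1.2-fold or more higher in replicate 2 (9.30% of genes), and 1, Mthfd2, was 1.2-fold or more higher in replicate 1 (13.2%). Ratios were above 0 for 6 of 9 enzymes and for 52.0% of all genes, and the median was 0.10 for the enzymes and 0.01 for all genes. Over 9 genes, these shares lie near the background.

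With TMM scaling, the interval excluded equality for 5 of the 9 enzymes, against 50.5% of all genes tested. Of the 5, Mthfd2 was lower in the second pool and 4 were higher. Phgdh, with 4679 and 4552 counts, gave a log2 ratio of 0.20 (0.14 to 0.25). Psat1 followed with 3536 and 3304 counts and 0.14 (0.07 to 0.21), and Shmt2 with 2073 and 1889 counts and 0.10 (0.01 to 0.19). Mthfd1 had 2105 and 2003 counts and 0.16 (0.07 to 0.25). For Shmt1, at 0.15 (-0.03 to 0.32), and Psph, at 0.04 (-0.10 to 0.18), the counting interval included equality. Such differences were ordinary: a ratio as far from 0 as that of Phgdh was seen in 37.5% of all genes.

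Ratios below 0 were seen for Mthfd2, Mthfd1l and Tyms, and of these the interval of Mthfd2 alone excluded equality. Mthfd2, with 824 and 571 counts, gave a log2 ratio of -0.29 (-0.45 to -0.14), a size seen in 22.8% of all genes. Mthfd1l gave -0.23 (-0.51 to 0.05), so at its depth a difference was not detectable. Tyms, with 1643 and 1391 counts, gave -0.0053 (-0.11 to 0.10). The higher TPM of Tyms in the second library therefore had no counterpart in its scaled counts. TPM is scaled with the spike-ins inside, which took 5.93% and 4.10% of it, and is divided by the effective length, which for Tyms was 1302 and 1226 bases.

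Scaling sets these directions. With spike-in counts as the scale, the median log2 ratio of all genes moved by 0.55, from 0.01 to 0.56, and 94.7% of genes were above 0. All 9 enzymes were then above 0, Mthfd2 at 0.26, and 8 of 9 were 1.2-fold or more higher in replicate 2, against 84.1% of genes. The median of the enzymes exceeded that of all genes by 0.09 under either scaling. A change of scale moves all log2 ratios by nearly the same amount, so this difference could hardly change. In the counts for lists and markers below, higher and lower mean a ratio above or below 0 (above 0 in 52.0% of all genes), and those at least 1.2-fold apart (9.30% of all genes higher and 13.2% lower in replicate 2) are counted separately. These directions are under TMM, and under spike-in scaling every tested gene of those lists except Chac1 was above 0.

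**Figure D3:**
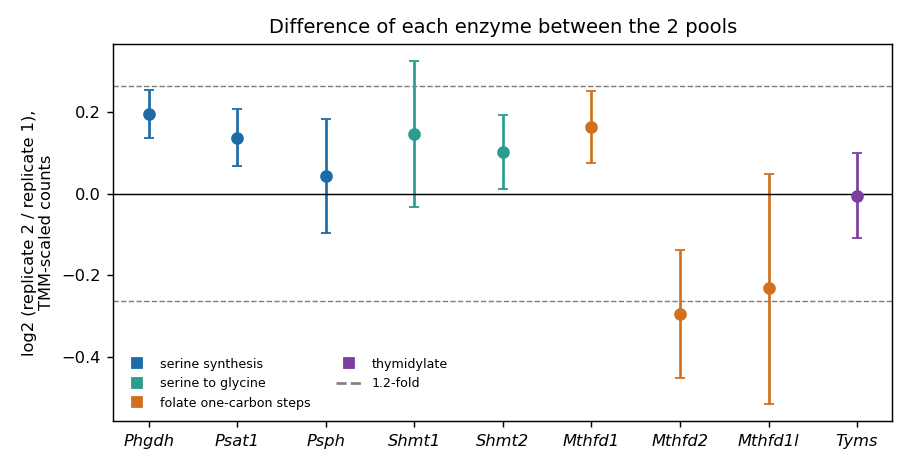
Log2 ratio of replicate 2 over replicate 1 (TMM-scaled counts, y axis) for each enzyme, with 95% counting intervals as whiskers and dashed lines at 1.2-fold. Mthfd2 at -0.29 is the point beyond a dashed line under this scaling, while spike-in scaling puts it at 0.26.

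Markers of cell types also differed between the pools. All 8 radial glia markers had ratios above 0, with 4 of 8 at least 1.2-fold higher in the second pool, a median log2 ratio of 0.27 and summed levels of 1780 and 2230 TPM. All 8 cell division markers did too, again with 4 of 8 at least 1.2-fold higher, a median of 0.27 and sums of 602 and 737 TPM, though the interval of Tk1 included equality (-0.07 to 0.26). Of 6 neuronal markers, 5 had ratios below 0 and 3 were at least 1.2-fold lower, with a median of -0.23 and sums of 3827 and 3443 TPM. The 5 markers of meninges and connective tissue were all at least 1.2-fold higher, with a median of 0.94 and sums of 121 and 322 TPM. Of these, Col1a1 at 1.89 and Col1a2 at 1.51 were at least 2-fold higher (1.38% of all genes were 2-fold apart). Erythroid, endothelial and microglial markers had ratios above 0 in 5 of 5, 4 of 4 and 4 of 4 genes, of which 4, 2 and 2 were at least 1.2-fold higher. The choroid plexus list was split. Of its 4 tested markers, 2 had ratios above 0 and 2 below, with a median of -0.06. Aqp1, at 0.50 (0.25 to 0.74), was at least 1.2-fold higher, and 0 were at least 1.2-fold lower. The sums were 445 and 395 TPM, most of it from Ttr, at 421 and 370 TPM and a ratio of -0.20 (-0.25 to -0.16). The 6 forebrain markers all exceeded 10 TPM in each pool and had ratios above 0, with 1 of 6 at least 1.2-fold higher and a median of 0.13, and no marker of any list was at 0. The part of these shifts in the enzyme ratios was not tested, and in bulk RNA fewer cells of a type and less RNA per cell cannot be told apart.

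The neighbouring pathways put the enzymes in context. Among genes of serine transport and use, the mitochondrial serine carrier Sfxn1 was highest at 66.6 ± 3.41 TPM, followed by the neutral amino acid transporter Slc1a4 at 48.9 ± 1.51 TPM and the serine racemase Srr at 38.4 ± 1.19 TPM. Sds, a serine dehydratase of liver, had 2 and 0 counts, and the 0 allows up to 0.3095 TPM at 3 counts. Of the 6 tested, 3 were higher and 3 lower in replicate 2, and 1, the transporter Slc7a10, was at least 1.2-fold higher by scaled counts. Its TPM was nearly equal, at 10.8 and 10.9, with effective lengths of 927 and 1223 bases. The glycine cleavage system, which feeds further carbon units into folate, was complete. Dld, a subunit shared with other dehydrogenase complexes, was at 112 ± 12.8 TPM, the carrier Gcsh at 65.9 ± 4.40 TPM, the aminomethyltransferase Amt at 19.3 ± 0.64 TPM and the glycine decarboxylase Gldc at 9.65 ± 1.16 TPM. Of these 4, 3 were higher in the second pool and none was 1.2-fold apart.

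Folate entry was led by the reduced folate carrier Slc19a1 at 32.3 ± 0.66 TPM, ahead of the polyglutamylating enzyme Fpgs at 19.0 ± 1.06 TPM and the hydrolase Ggh at 18.3 ± 1.14 TPM, with the folate receptor Folr2 lowest at 0.56 ± 0.057 TPM. Of 6 tested genes, 4 were higher and 2 lower, with none 1.2-fold apart. Among other folate enzymes, Aldh1l1, which oxidises formyl-tetrahydrofolate in the cytosol, was at 29.98 ± 2.83 TPM, Mthfsl at 27.8 ± 4.02 TPM and Mthfd2l at 24.2 ± 1.26 TPM. Ftcd, of histidine breakdown, was lowest at 0.09 ± 0.057 TPM. Of the 6 genes of this list tested here, 3 were higher and 3 lower, and none was 1.2-fold apart.

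Genes of nucleotide synthesis had median levels of 52.1 TPM (partners of Tyms) and 39.5 TPM (purine synthesis). The thymidylate kinase Dtymk was at 155 ± 3.46 TPM, the ribonucleotide reductase subunit Rrm2 at 129 ± 20.3 TPM and the dUTPase Dut at 75.0 ± 3.05 TPM, with the p53-induced subunit Rrm2b lowest at 12.4 ± 2.60 TPM. Of these 8 partners of Tyms, 6 were higher in the second pool, and Rrm2, at 0.34 (0.28 to 0.40), and Rrm2b, at 0.26 (0.11 to 0.42), were at least 1.2-fold higher. Tyms itself was at -0.0053. In purine synthesis, Paics was at 188 ± 14.1 TPM, Adsl at 70.4 ± 2.04 TPM and Gart at 48.5 ± 0.67 TPM, and the amidotransferase Ppat was lowest at 13.7 ± 1.17 TPM. Of these 6, 4 were higher, 2 lower and none 1.2-fold apart.

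In the methionine cycle, the methionine adenosyltransferase gene Mat2a was at 286 ± 6.51 TPM, its regulatory subunit Mat2b at 73.5 ± 9.97 TPM and Ahcy, which clears S-adenosylhomocysteine, at 39.1 ± 1.94 TPM. The liver enzyme Bhmt had 0 counts in both libraries, which allows up to 0.0529 and 0.063 TPM at 3 counts. Of 7 tested, 6 were higher and 1 lower. Cbs, which draws serine and homocysteine into cystathionine, was at 7.19 and 11.1 TPM, a log2 ratio of 0.59 (0.37 to 0.81), and Mat2b was at 0.27 (0.18 to 0.35). Cbs therefore differed more between the pools than any of the 9 enzymes.

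Atf4 is a stress-responsive transcription factor known to drive Phgdh, Psat1, Shmt2 and Mthfd2. Atf4 itself was at 114 and 103 TPM, a log2 ratio of -0.17 (-0.24 to -0.09). Its textbook target Asns, asparagine synthetase, was at 72.1 and 58.3 TPM and -0.32 (-0.42 to -0.23), and Ddit3 was at 21.4 and 23.0 TPM and 0.08 (-0.16 to 0.32). Chac1, which degrades glutathione, was at 9.42 and 3.88 TPM and -1.29 (-1.65 to -0.95), the 1 gene of the list 2-fold apart. Trib3 had 51 and 20 counts, too few for the comparison. Of 7 tested genes, 4 were lower and 3 higher, with a median of -0.17. At least 1.2-fold lower were Chac1, Asns and the stress sensor Sesn2, and 1, the cystine transporter Slc7a11 at 0.55 (0.33 to 0.77), was higher. Among the enzymes credited to Atf4, Mthfd2 lay with Asns on the lower side, while Phgdh, Psat1 and Shmt2 lay above 0. The 2 libraries give 1 ratio per gene, so no shared control can be read from this.

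**Figure D4:**
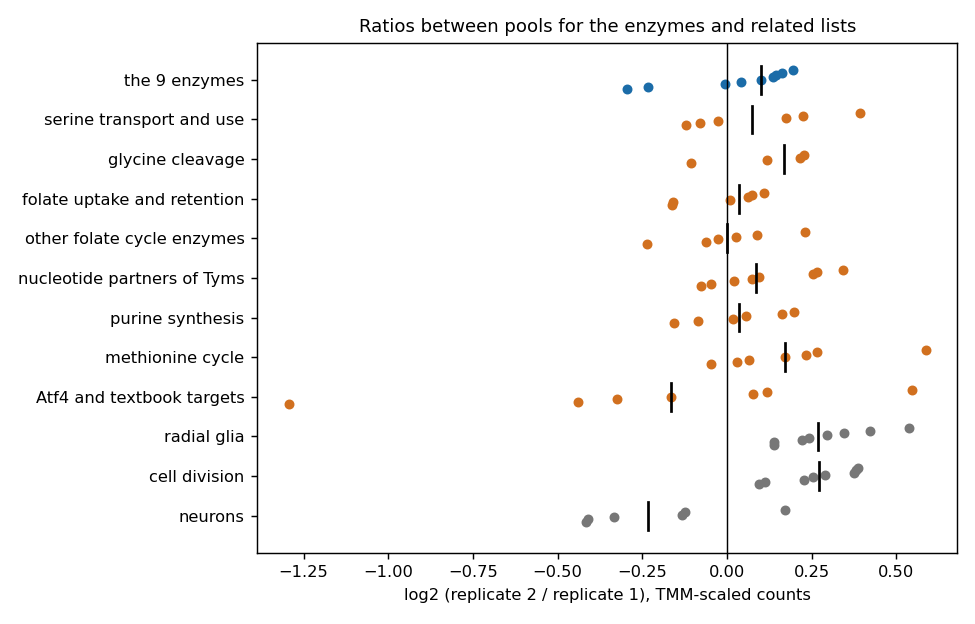
Log2 ratios of replicate 2 over replicate 1 (x axis, TMM-scaled counts), with 1 point per tested gene and a bar at the median, for the 9 enzymes (blue), related pathway lists (orange) and cell type markers (grey). The enzymes span -0.29 to 0.20, Chac1 is the point at -1.29, and under spike-in scaling all points but Chac1 lie above 0.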

How the data were processed

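Total RNA from 2 pools of forebrain was sequenced, and the authors deposited 1 gene table and 1 transcript table per library, without pooling. Per the labels' notes, reads were placed on mm10 with GENCODE M4 transcripts. Which aligner and quantification program were used is not given in the sources used here. Expected counts were deposited by the authors unnormalized, with posterior means beside the maximum likelihood values. Deposited TPM values are per effective length and are scaled over all listed features, spike-ins included. The deposited FPKM values, also per effective length, served as an alternative. The authors deposited each transcript's percent of its gene's TPM, per the file headers. The interval bounds on TPM, a signal in TPM units, were deposited by the authors per the file headers.

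Symbols, coordinates and transcript types came from GENCODE M21 on GRCm38, the assembly of mm10, through identifiers without version, and 42462 of 43346 genes matched. Expected counts were rounded and scaled with edgeR 4.0.16 (TMM) in R 4.3.3. Log2 ratios used a prior count of 0.5 and genes that averaged 50 counts or more. The procedure was tested on simulated data. The intervals cover counting error only, since each pool gave 1 library. PCR copies are not independent molecules, so the intervals may be too narrow even for that. Other steps used Python 3.11.15, numpy 2.4.6, pandas 2.3.3, scipy 1.17.1 and matplotlib 3.10.9. Promoter windows were RefSeq's (GRCm38.p6), searched on both strands.

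The members, lists, pairs and motifs were chosen with earlier results of these data known. Named genes were the 9 enzymes, the genes of 7 pairs, the 3 highest members and the lowest of each pathway list, and any 2-fold apart. Slc7a10, Cbs, Sesn2, Slc7a11, Ttr and Aqp1 fall outside this rule and were named after their values were seen. Alternatives were other scalings, posterior means, FPKM, the prior count, the pseudocount, the count minimum and each replicate left out. Some genes of the lists and pairs are not reported here.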

Additional observations from a re-analysis of the deposited data

How the results depend on the processing

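With 2 libraries, leaving 1 out gives no ratio between the pools. It gives the other library's value for levels and pairs. Of the results that answer a comparison, 91 alternative values kept within the spread or within 1.5 times, and 18 moved. The 91 are no measure of robustness, since some could not have moved. Leaving out 1 of 2 libraries always keeps a mean within its SD, and FPKM is proportional to TPM within a library. The count minimums removed none of the enzymes. The rise from 6 to 9 enzymes above 0 under spike-in scaling also counted as kept. Spike-in scaling put the enzymes' median log2 ratio at 0.65, with 8 enzymes at least 1.2-fold higher in replicate 2 and 0 in replicate 1, and turned Mthfd2 to 0.26. The other scalings, posterior mean counts, prior counts and count minimums kept 6 of 9 enzymes above 0. A pseudocount of 1 TPM gave log2 ratios of 3.06 for Mthfd1 over Mthfd1l, 2.22 for Mthfd2 over Mthfd1l, 1.28 for Psat1 over Psph and 1.07 for Tyms over Tk1. Posterior mean TPM gave 1.66 for Shmt2 over Shmt1, 1.29 for Psat1 over Psph and 1.08 for Tyms over Tk1. Counts without length correction gave 1.67 for Mthfd2 over Mthfd1l, 0.43 for Phgdh over Psat1, 2.02 for Psat1 over Psph and 1.27 for Tyms over Tk1. With all reads on the longest coding transcript, chosen after seeing the data, the values were 2.26 for Shmt2 over Shmt1, 0.92 for Phgdh over Psat1, 1.17 for Psat1 over Psph and 0.073 for Tyms over Tk1. Each of these pairs kept its sign. Rescaling TPM without spike-ins and tRNA-like features together raised Psat1, Psph and Tyms beyond their SD, to 89.6, 36.4 and 73.3 TPM. Depth limits Mthfd1l most, with 253 and 183 counts. The cause of the gap between spike-in and TMM scaling was not tested.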
